A study of Mus musculus with 714 samples.

Results

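Replication-dependent histone genes encode the bulk of the histone proteins that package newly copied DNA. They are represented here by the 66 rows of the counts table whose names start with Hist1h, Hist2h, Hist3h or Hist4h, of 12479 rows in all. By symbol, 6 rows are of the linker histone H1 class, 20 of H2A, 19 of H2B, 11 of H3 and 10 of H4. Among them Hist1h2aj, Hist1h2al and Hist3h2bb-ps are annotated as pseudogenes in GENCODE M21. In the GRCm38 mouse genome 55 of the 66 lie on chromosome 13, 8 on chromosome 3 and 3 on chromosome 11.

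These genes are transcribed mainly while DNA is being copied, in S phase. A core particle of H2A, H2B, H3 and H4 wraps the DNA, and H1 binds the DNA between particles. Their mRNAs as a rule end in a short stem-loop bound by the protein Slbp, and not in the poly(A) tail that other mRNAs carry. Some histone genes also give transcripts with a poly(A) tail, a form known from cells that have stopped dividing.

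The measured cells came from the uterus of ICR mice (an outbred strain with no transgene, drug or other agent named) at postnatal day (pnd) 0, 7, 14, 28 and 56. They were sorted one by one for CD326 (EpCAM), a surface protein of epithelial cells, and their RNA was prepared by CEL-seq, which primes on poly(A) and counts the 3' end of each transcript. How much mRNA without a poly(A) tail this captured was not tested. The table holds 714 cells, of which 24.2%, 37.4%, 24.2%, 7.84% and 6.30% are of the 5 ages in order, with 582615, 732957, 354047, 96248 and 81894 counts. No label names an animal or a pool, so each age is 1 sample, no difference between ages has a replicate check, and no test was made. The 95% intervals given cover counting error only.

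Cell titles fall into 10 blocks of 96 consecutive numbers, called runs here, each with cells of 1 age (pnd0 in runs 1 and 2, pnd7 in 5, 6 and 10, pnd14 in 3, 4 and 7, pnd28 in run 9 and pnd56 in run 8). The labels do not say what the blocks are, and age and run cannot be told apart. Levels are summed counts of an age per 1000000 counts (CPM). The epithelial list (Epcam, Krt18, Krt19, Cdh1 and Dsp) summed to between 4925 and 6176 CPM at every age. Most of this sum was Krt18, and its members did not move together. From pnd0 to pnd56, Krt18 went from 5277.9 to 3602.2 CPM and Krt19 from 18.9 to 0 CPM. Epcam went from 374.2 to 769.3 CPM, Cdh1 from 254.03 to 439.6 CPM and Dsp from 250.6 to 439.6 CPM. Markers of other cells differed between ages. The smooth muscle list (4 of 6 genes have a row) stood at 68.7, 180.1, 2810, 1299 and 109.9 CPM, the stroma list at 34.3, 84.6, 604.4, 2899 and 1905 CPM, and the erythroid list at 13467, 311.1, 262.7, 166.2 and 0 CPM. At pnd0 the erythroid level was 26555 CPM in run 1 and 6.96 CPM in run 2, and the globin rows Hba-a1 and Hba-a2, both in the sum, held 3919 and 3893 counts there. In sums over cells, fewer cells of a kind and less RNA per cell cannot be told apart.

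Many histone rows repeated each other, which decides what can be called a gene here. Hist1h2ao and Hist1h2ap, a pair of H2A genes, had equal counts in 98.2% of the 490 cells with a count in either, and the H2A pair Hist2h2aa1 and Hist2h2aa2 in 99.05% of theirs. Rows with equal counts in over 50% of such cells were joined into 1 signal, taking the higher count in each cell. Joining ran through connected pairs, so 14 of the 45 pairs within the largest group were equal in less than that, down to 32.5%. This joined 21 rows into 6 signals and left 51 signals from the 66 rows. The largest group held 10 rows, the H2A rows Hist1h2ab, Hist1h2ac, Hist1h2ad, Hist1h2ae, Hist1h2ag, Hist1h2ah, Hist1h2ai and Hist1h2aj (annotated as a pseudogene) and the H2B rows Hist1h2bb and Hist1h2bm. The other joined signals were Hist1h2an with Hist1h2bj and Hist1h2bp, Hist1h2ak with Hist1h2bn, and Hist2h2ab with Hist2h2ac.

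Shared transcript sequence went with these equal counts in one kind of pair and was absent in another. The 25 joined pairs of H2A rows shared between 29.2% and 100% of their 31-base words (median 69.1%), so a read may match both. Another 12 joined pairs held an H2A and an H2B row with 0% of words shared. Among them are Hist1h2aj and Hist1h2bm, equal in 97.1% of cells, whose annotated genes lie 0.242 kb apart, and Hist1h2ak and Hist1h2bn, equal in 94.1% of 68 cells and 0.163 kb apart. How the authors' counting gave these rows equal counts was not tested.

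**Figure D1:**
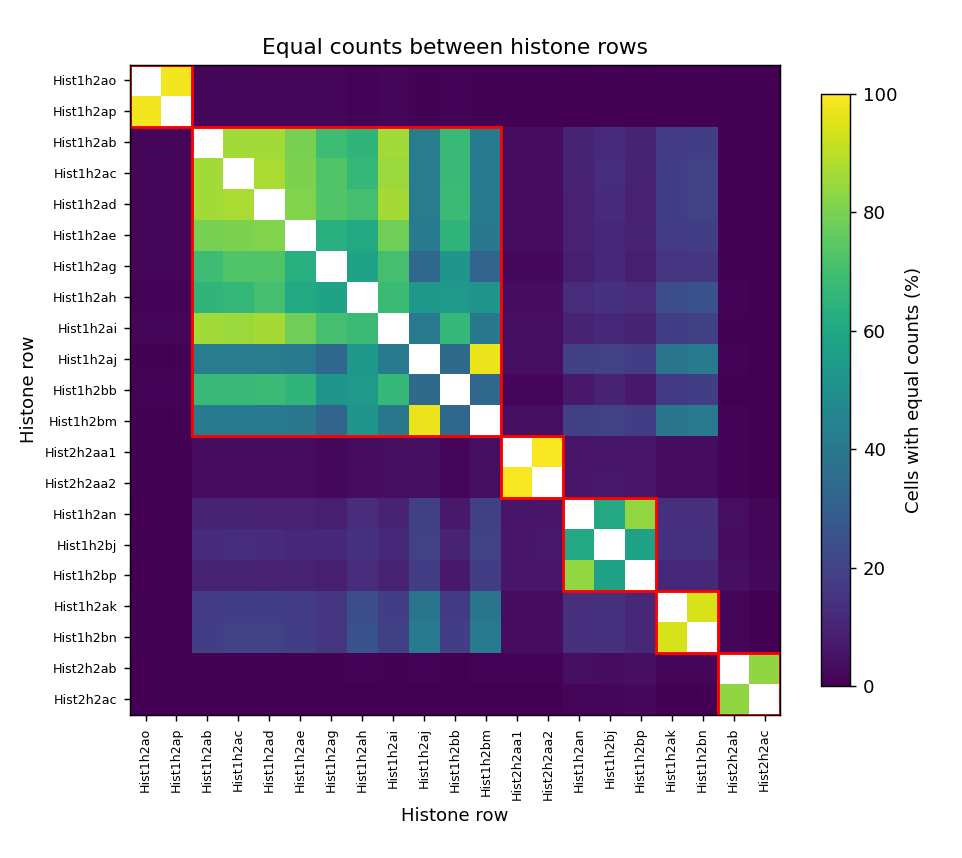
Share of cells with equal counts for each pair of the 21 joined histone rows (colour, in % of the cells with a count in either row), with the 6 joined signals framed in red. Hist1h2ao and Hist1h2ap, Hist2h2aa1 and Hist2h2aa2, and the H2A and H2B rows Hist1h2aj and Hist1h2bm are equal in over 97% of their cells, and between frames the shares reach 40.8% with a median of 3.19%.

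The joined signals held 15514 counts, against 32161 when every row is summed as deposited. Hist1h2ao/Hist1h2ap alone held 12529 of them, 80.8%. The next were the 10-row group with 4.58% of histone counts, the linker gene Hist1h1e with 3.07%, Hist2h2aa1/Hist2h2aa2 with 1.83% and the linker gene Hist1h1c with 1.68%. By class, H2A signals held 82.99% of histone counts, signals joining H2A and H2B rows 6.55%, H1 5.43%, H2B 2.82%, H3 1.11% and H4 1.10%. Of the 51 signals, 24 had at least 20 counts and 27 had between 1 and 16.

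The stem-loop that ends a histone mRNA was looked for in the annotated transcripts (GENCODE M21, GRCm38), because it separates transcripts that stop there from longer ones. It was found in 43 of the 66 genes. In 23 of these the annotated transcript ends within 100 bases after the loop, and in 20 it runs on further. The first pair of sequences below stops soon after the stem-loop, at 31 and 35 bases. The transcripts of Hist1h1e and Hist1h1c run on for 1153 and 840 bases, and the stretch after the loop of Hist1h1c contains the poly(A) signal AATAAA. The last, of Hist1h4d, shows the form found in 6 of the 9 H4 genes with a match. Capitals mark the 16 bases of the stem and loop.
Hist1h2ao: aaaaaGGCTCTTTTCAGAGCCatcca
Hist2h2aa1: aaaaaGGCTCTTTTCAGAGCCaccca
Hist1h1e: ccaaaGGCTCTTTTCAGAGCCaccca
Hist1h1c: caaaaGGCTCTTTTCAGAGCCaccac
Hist1h4d: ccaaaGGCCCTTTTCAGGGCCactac

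The capitals are the same in 4 of these 5 genes. Over all members, 26 genes had this form and 6 the form shown for Hist1h4d. No match was found in the annotated transcripts of Hist1h2bc, Hist1h1b, Hist1h2ak or Hist1h2bn, which says only that the letters are not in these transcripts.

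Over the 5 ages the summed histone level was 6567 CPM at pnd0, 11471 at pnd7, 7047 at pnd14, 2057 at pnd28 and 7168 at pnd56. It was highest at pnd7 and lowest at pnd28. The log2 ratio of pnd7 over pnd0 was 0.80 (95% interval 0.75 to 0.86), that of pnd14 over pnd7 was −0.70 (−0.77 to −0.64), that of pnd28 over pnd14 was −1.78 (−1.99 to −1.57) and that of pnd56 over pnd28 was 1.80 (1.57 to 2.04). For pnd56 over pnd0 it was 0.13, with an interval that reached just below 0. Over all genes with at least 20 counts in a pair of ages, the median log2 ratio was −0.03, −0.10, −0.23 and 0.06 in the order of the neighbouring ages and −0.45 for pnd56 over pnd0.

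The runs of an age differed by more than the counting intervals. At pnd0 they stood at 8673 and 4401 CPM. At pnd7, runs 5 and 10 stood at 15075 and 13999 CPM and run 6 at 3701 CPM, and at pnd14, runs 3, 4 and 7 stood at 6703, 14114 and 4343 CPM. Run 6 of pnd7 therefore lay below both runs of pnd0 and all 3 runs of pnd14, and the runs of these 3 ages overlap. Leaving out 1 run at a time gave a log2 ratio of pnd7 over pnd0 from 0.40 (without run 2) to 1.38 (without run 1), and 1.14 without run 6. The proliferation lists did not set run 6 apart in the same measure. S phase genes stood at 2211 CPM in run 6 and at 2517 and 2911 CPM in runs 5 and 10, and G2 and M phase genes at 896.1, 829.5 and 1034.8 CPM in the same order.

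Without Hist1h2ao/Hist1h2ap the order of the ages was another one. The remaining 50 signals stood at 1104, 1759, 2342, 1008 and 1551 CPM, highest at pnd14. Their log2 ratio of pnd14 over pnd7 was 0.41 (0.29 to 0.54), the opposite sign of the full sum. That value rests largely on run 4 of pnd14, where they stood at 5649 CPM against 1524 and 1654 CPM in the other pnd14 runs. A large part of these run 4 counts came from 1 cell, the pnd14 cell with many histone rows at one count described below. The ratio without that cell alone is not given here. Without run 4 the ratio was −0.14.

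**Figure D2:**
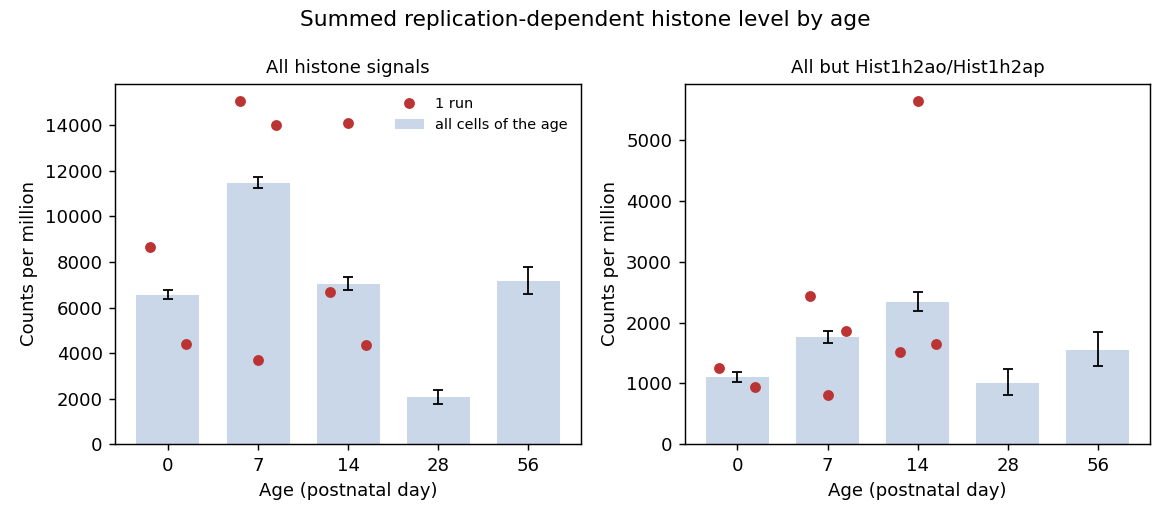
Summed histone level (CPM) by age in postnatal days, for all signals (left) and without Hist1h2ao/Hist1h2ap (right); bars are all cells of an age with 95% Poisson intervals, and points are single runs where an age has several. The left sum is highest at pnd7 (11471 CPM) with run 6 far below the other pnd7 runs, and the right one at pnd14 (2342 CPM) with run 4 far above the rest. On the right, a large part of the run 4 counts came from 1 cell.

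A pair of cells held many histone rows at one and the same count. In a pnd14 cell of run 4 with 1368 counts in all, 9 signals each stood at 12 counts, among them the linker genes Hist1h1c and Hist1h1t, the H2B genes Hist1h2bc, Hist1h2bf, Hist1h2bg and Hist1h2bq, the H3 gene Hist1h3c and the H4 gene Hist1h4c. In a pnd7 cell of run 10 with 9332 counts, 8 signals each stood at 4 counts, 7 of them H3 genes. No other cell had more than 2 signals at one count of 4 or above, and the median cell had a count in 2 signals. These cells weigh on the classes with few counts, so several of the results below are given with and without them.

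The classes did not keep one order over the ages. H2A signals followed the full sum at 5513, 9814, 5296, 1205 and 5849 CPM, since Hist1h2ao/Hist1h2ap makes up most of their counts. Linker H1 signals stood at 322.7, 500.7, 607.3, 363.6 and 464.01 CPM. The log2 ratio of H1 for pnd14 over pnd7 was 0.28 (0.03 to 0.53), but it was −0.11 without run 6 and −0.07 without run 4. H2B signals stood at 133.9, 208.7, 420.8, 332.5 and 305.3 CPM, so that pnd14 was 2.02-fold above pnd7 and pnd56 2.28-fold above pnd0, though the log2 ratio of pnd56 over pnd0 was −0.070 when every row was summed. Without the 2 cells the log2 ratio of H2B for pnd14 over pnd7 moved from 1.01 to 0.41.

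The nucleosome core pair H3 and H4 was thinly counted. H3 signals summed to 40, 81, 34, 3 and 14 counts over the ages and H4 signals to 47, 61, 49, 2 and 12. The log2 ratio of H3 for pnd7 over pnd0 was 0.69 (0.12 to 1.27) and became −0.08 without the 2 cells. That of H4 for pnd14 over pnd7 was 0.73 (0.16 to 1.30) and became −0.25 without them. Both signs thus changed when 1 cell of the higher age was left out. For H3 this was one-sided, since 1 pnd0 cell with 21 of the 40 counts of that age stayed in. The H3 ratio without that cell too is not given here. At pnd28, 3 counts of H3 and 2 of H4 are at or below the floor of 3 counts, and no fold with that age is given.

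As a share of all histone counts, H2A stood at 85.5% at pnd7, 58.6% at pnd28 and 81.6% at pnd56. H1 made up 4.36% at pnd7 and 17.7% at pnd28, and H2B 1.82% and 16.2%. The pnd28 shares come from 1 run and the fewest histone counts of any age.

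Single signals took different courses, and the dominant one is described first. Hist1h2ao/Hist1h2ap encodes H2A, and its counts cannot be divided between the genes. It stood at 5463, 9713, 4706, 1049 and 5617 CPM over the ages and had a count in 71.1%, 83.9%, 55.5%, 41.1% and 53.3% of cells. By run it stood at 7417 and 3454 CPM at pnd0, at 12644, 2888 and 12133 CPM in runs 5, 6 and 10 of pnd7, and at 5179, 8465 and 2689 CPM in runs 3, 4 and 7 of pnd14. These runs overlap between ages, while pnd28 lay below every run of the earlier ages. The most counts in 1 cell were 643, the pnd7 cell described above, and leaving that pair of cells out changed the log2 ratio of pnd7 over pnd0 from 0.83 to 0.71.

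Linker gene Hist1h1e and the 10-row group had a similar order of ages up to pnd28. Hist1h1e stood at 248.9, 319.3, 214.7, 114.3 and 122.1 CPM, and its pnd7 runs 5, 6 and 10 at 422.96, 43.8 and 429.4 CPM. The 10-row group stood at 332.98, 523.9, 313.5, 83.1 and 170.95 CPM, with 964.4 CPM in run 4 of pnd14 and 207.2 and 130.2 CPM in the other runs of that age. Hist1h1e at pnd56 was below pnd0 with a log2 ratio of −1.03 (−2.12 to −0.11), on 10 counts.

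Linker gene Hist1h1b had no count in 3 of the 10 runs. It stood at 18.9, 80.5, 25.4, 20.8 and 24.4 CPM over the ages. All 9 of its pnd14 counts came from run 4 and none from runs 3 and 7, and at pnd7 run 5 gave 42 counts, run 10 gave 17 and run 6 gave none. Its ratio of pnd7 over pnd0 (log2 2.09, 1.15 to 3.17) was 0.88 without run 5.

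3 signals had higher levels at pnd14 and later than at pnd0 and pnd7, an order that the sum of all signals did not have. Hist1h1c, a linker gene, stood at 49.8, 95.5, 321.99, 228.6 and 317.5 CPM. Hist1h2bc, an H2B gene, stood at 32.6, 60.03, 169.5, 176.6 and 183.2 CPM. Hist2h2aa1/Hist2h2aa2, an H2A signal from chromosome 3, stood at 41.2, 60.03, 536.7, 155.8 and 134.3 CPM.

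Their runs did not overlap between pnd7 and pnd14. Of the 17 signals with at least 20 counts in these ages, 4 (these 3 and Hist1h2bf) had every pnd14 run above every pnd7 run, where 8.91% of all genes did, and 0 had every run below, where 14.5% of all genes did. Hist2h2aa1/Hist2h2aa2 stood at 29.2 to 73.9 CPM in the pnd7 runs and at 520.96, 532.7 and 581.7 CPM in the pnd14 runs. Hist1h1c stood at 58.4 to 116.2 CPM in the pnd7 runs and at 125.8, 336.8 and 488.4 CPM in the pnd14 runs. Hist1h2bc stood at 24.4 to 77.4 CPM and at 143.3, 147.98 and 275.5 CPM. Hist1h2bf was barely apart, at 58.6 CPM (9 counts) in run 7 of pnd14 and 57.5 CPM (14 counts) in run 5 of pnd7, with counting intervals that overlap.

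The log2 ratio of pnd14 over pnd7 was 3.16 (2.68 to 3.67) for Hist2h2aa1/Hist2h2aa2, 1.75 (1.31 to 2.20) for Hist1h1c and 1.5 (0.91 to 2.09) for Hist1h2bc. The sum of the smooth muscle markers was also highest at pnd14, though Des was higher at pnd28 (425.98 against 293.7 CPM). At pnd14, 25.4% of cells held at least 3 counts of these markers, against 8.24% at pnd7 and 23.2% at pnd28. Without those cells the 3 ratios were 3.02, 1.78 and 1.73, and without the pair of cells with equal counts they were 3.15, 1.58 and 1.30. For pnd56 over pnd0 the ratios were 1.71 (0.53 to 2.79), 2.67 (1.85 to 3.49) and 2.49 (1.41 to 3.54), on 11, 26 and 15 counts at pnd56. Cells at pnd56 came from 1 run. The 5 stroma markers also had higher sums at pnd14 and later, at 489.9 to 677.2 CPM in the pnd14 runs against 41.1 to 137.3 CPM in the pnd7 runs, with Lum at 0 at pnd0 and pnd14. Their part in these ratios was not tested.

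**Figure D3:**
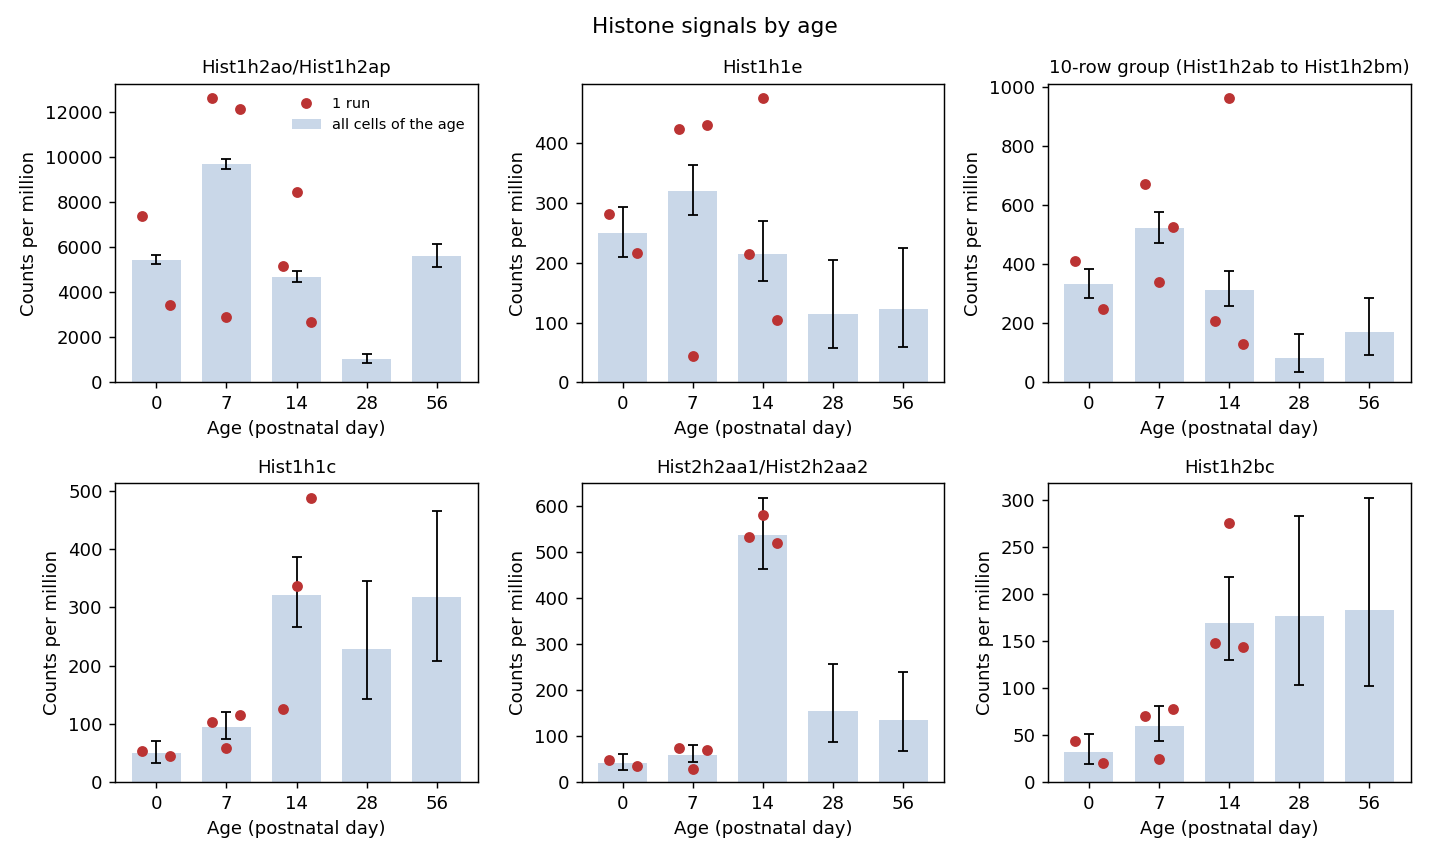
Level of 6 histone signals by age in postnatal days, in CPM, with bars for all cells of an age, 95% Poisson intervals, and points for single runs. In the upper row the pnd28 bars are low and the runs of an age are spread wide; in the lower row the pnd14 runs all lie above the pnd7 runs, as they do for 8.91% of all genes.

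Counted over signals with at least 20 counts in a pair of ages, the members did not move as one. From pnd0 to pnd7, 4 of 16 signals were at least 2-fold higher and 1 (Hist1h4n) was lower, where 4.94% and 7.61% of all genes were. The 4 were Hist1h1b, Hist1h2an/Hist1h2bj/Hist1h2bp, Hist1h2bf and Hist1h2bq, and 2 of these had 2 counts each at pnd0. The median log2 ratio of the 16 was 0.72. Leaving out the 2 cells with equal counts gave the same higher and lower signals and a median of 0.62.

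From pnd7 to pnd14, 6 of 17 signals were at least 2-fold higher and 4 were lower, against 10.7% and 14.3% of all genes. The higher ones were Hist1h1c, Hist1h2bc, Hist1h2bf, Hist1h3c, Hist1h4c and Hist2h2aa1/Hist2h2aa2, and the lower ones Hist1h1b, Hist1h2ao/Hist1h2ap, Hist1h2bk and Hist1h3a. Without the 2 cells 14 signals were measured, with 4 higher and 5 lower, and their median went from −0.23 to −0.76. Hist1h3c and Hist1h4c were no longer among the higher ones, and Hist1h2ao/Hist1h2ap (log2 −0.96) was just short of 2-fold lower.

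From pnd14 to pnd28, 7 of 10 signals were at least 2-fold lower and 0 higher, against 24% and 11.9% of all genes, with a median of −2.04. Hist1h1e, Hist1h1c and Hist1h2bc were the 3 that were not. Among the lower ones Hist1h2bg had 0 counts at pnd28 and 21 at pnd14. Without the 2 cells 6 of 9 signals were lower, with a median of −1.70, and Hist1h2bg was no longer measured. From pnd28 to pnd56, 2 of 6 signals were higher and 0 lower, against 14.8% and 16.5% of all genes. For pnd56 over pnd0, 3 of 9 signals were higher and 2 lower, against 10.3% and 34.9% of all genes. The 3 were Hist1h1c, Hist1h2bc and Hist2h2aa1/Hist2h2aa2.

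Other genes of histone supply are described from fixed lists, which were written with earlier results of these data known. Histones made outside replication, measured in 10 rows, stood at 1613, 1810, 1178, 1299 and 1636 CPM. H2afz, an H2A variant used throughout the cell cycle, held 2328 of their counts and stood at 1287, 1430, 923.6, 976.6 and 1331 CPM. From pnd7 to pnd14, 1 of their 5 measured genes, the linker variant H1f0, was at least 2-fold lower and none was higher. Over all genes 14.3% were lower and 10.7% higher. The median of the 5 was −0.63.

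Genes that transcribe and process histone mRNA stood at 638.5, 675.3, 559.2, 436.4 and 647.2 CPM. From pnd7 to pnd14 none of the 6 measured ones was 2-fold higher or lower, against 10.7% and 14.3% of all genes. Slbp, the stem-loop binding protein, had 20, 30, 9, 6 and 5 counts over the ages. Histone chaperones and import factors stood at 2161, 2422, 1873, 1683 and 1783 CPM. Of 13 measured from pnd7 to pnd14, 3 were at least 2-fold lower and 0 higher, near the 14.3% of all genes that were lower. The 3 were Chaf1a and Chaf1b, subunits of the chromatin assembly factor that loads H3 and H4 behind the replication fork, and the H3 and H4 chaperone Asf1b. Chaf1b stood at 422.2, 342.4, 110.2, 124.7 and 244.2 CPM.

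The lists for S phase and for G2 and M phase were both lower at pnd14. S phase genes stood at 2283, 2584, 1305, 1849 and 2051 CPM, and G2 and M phase genes at 806.7, 927.7, 279.6, 363.6 and 500.6 CPM. From pnd7 to pnd14, 8 of 21 S phase genes were at least 2-fold lower and 0 higher (median −0.82), and 10 of 11 G2 and M phase genes were lower and 0 higher (median −1.76). Over all genes, 14.3% were lower and 10.7% higher. Pcna, the DNA polymerase clamp, stood at 327.4 CPM at pnd7 and 200.5 at pnd14. The mitotic gene Birc5 stood at 174.6 and 48.02 CPM and Top2a at 117.3 and 50.84 CPM at these ages. Run 4, the pnd14 run with the highest histone level, had the lowest S phase level of that age (1087 CPM, with 1265 in run 3 and 1433 in run 7). Its G2 and M phase level was the highest of that age (474.55 CPM, with 96.2 in run 3 and 358.2 in run 7). At pnd28 the histone sum was at its lowest while the summed S phase list stood above pnd14. Much of that rise was the gene Rfc4, at 104.5 CPM at pnd14 and 436.4 CPM at pnd28. Among the measured S phase genes, Rfc4 and Prim1 were at least 2-fold higher at pnd28 than at pnd14 and Cdt1 was lower. Their median log2 ratio was 0.56. Cells at pnd28 came from 1 run.

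Histone counts were concentrated in few cells at each age. The tenth of cells with the most histone counts held 72.8%, 70.8%, 64.6%, 46.97% and 74.4% of them over the ages. A histone count was found in 82.7%, 89.5%, 80.9%, 69.6% and 88.9% of cells, at median depths of 3037, 2492, 1782, 1600 and 1670 counts. No cell type of these sorted cells is known to lack these genes, so a background share cannot be given beside these values.

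To compare cells at one depth, each was thinned at random to 1500 counts, which left out 9, 13, 60, 23 and 20 shallower cells. The median cell then had 3, 7, 4, 2 and 3 histone counts. Cells with at least 1% histone counts (15 of 1500) made up 12.8% at pnd0 (Clopper-Pearson 8.10% to 18.9%), 18.9% at pnd7 (14.3% to 24.3%) and 19.5% at pnd14 (12.6% to 27.98%). At pnd28 there were 0 of 33, with an upper bound of 10.6%, and at pnd56 there were 5 of 25 (20%, 6.83% to 40.7%). This class is a range of a continuous value, and 16, 58, 21, 0 and 1 cells held between 10 and 20 counts. Intervals of pnd0, pnd7, pnd14 and pnd56 overlap, and that of pnd28 overlaps those of pnd0 and pnd56 but not those of pnd7 and pnd14. By run the share went from 10.98% in run 6 to 23.2% in run 5 at pnd7, and from 13.7% in run 7 to 33.3% in run 4 at pnd14. The run 4 share was 6 of 18 cells (13.3% to 59.01%) and that of run 7 was 7 of 51 (5.7% to 26.3%), with intervals that overlap.

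**Figure D4:**
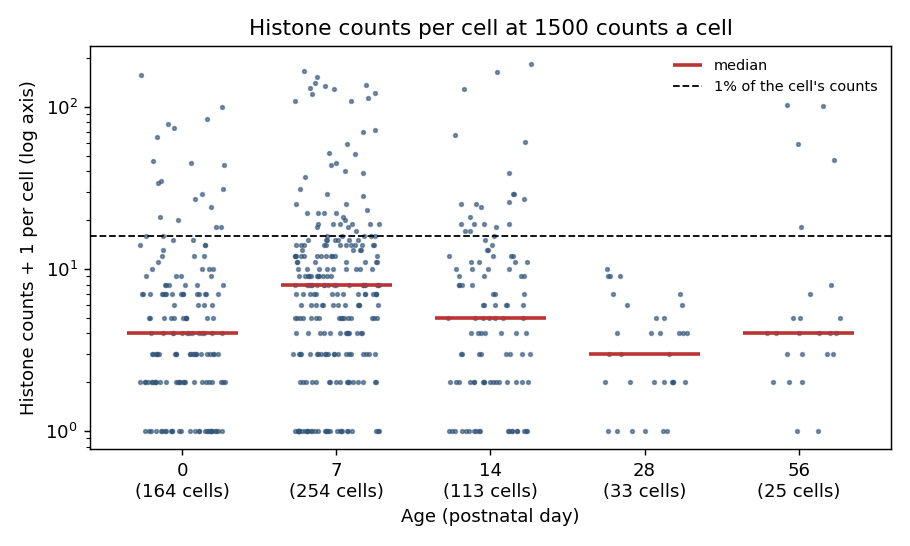
Histone counts plus 1 per cell on a log axis after thinning every cell to 1500 counts, by age in postnatal days; each point is 1 cell, red lines are medians and the dashed line marks 1% of a cell's counts. Cells above the line are found at all ages but pnd28, where the highest cell had 9 histone counts.

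Within cells, a set of signals varied together, and another set had low correlations with Hist1h2ao/Hist1h2ap. The following correlations are Pearson r of log2(count + 1) over the 74.4% of all cells that are of pnd0, pnd7 or pnd14 and reach 1500 counts, thinned to that depth and centred by run. The points share runs, a fixed total and sparse counts, and r is a description with no test. Hist1h2ao/Hist1h2ap had r of 0.55 with the 10-row group, 0.45 with Hist1h2ak/Hist1h2bn, 0.39 with Hist1h2an/Hist1h2bj/Hist1h2bp, 0.30 with Hist1h1e and 0.28 with Hist1h1b. The first 3 pair H2A rows with rows of the same class, and the part of shared reads in these values was not tested.

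Its r with the signals that were higher at later ages was 0.13 for Hist1h1c, 0.11 for Hist2h2aa1/Hist2h2aa2 and −0.01 for Hist1h2bc. With the summed S phase list, r was 0.28 for Hist1h2ao/Hist1h2ap, and −0.06, −0.04 and −0.08 for Hist1h1c, Hist2h2aa1/Hist2h2aa2 and Hist1h2bc. With the G2 and M phase list the values were 0.30 and 0.01, −0.04 and −0.04 in the same order. These latter signals have few counts per cell, and an r near 0 in such counts shows little.

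**Figure D5:**
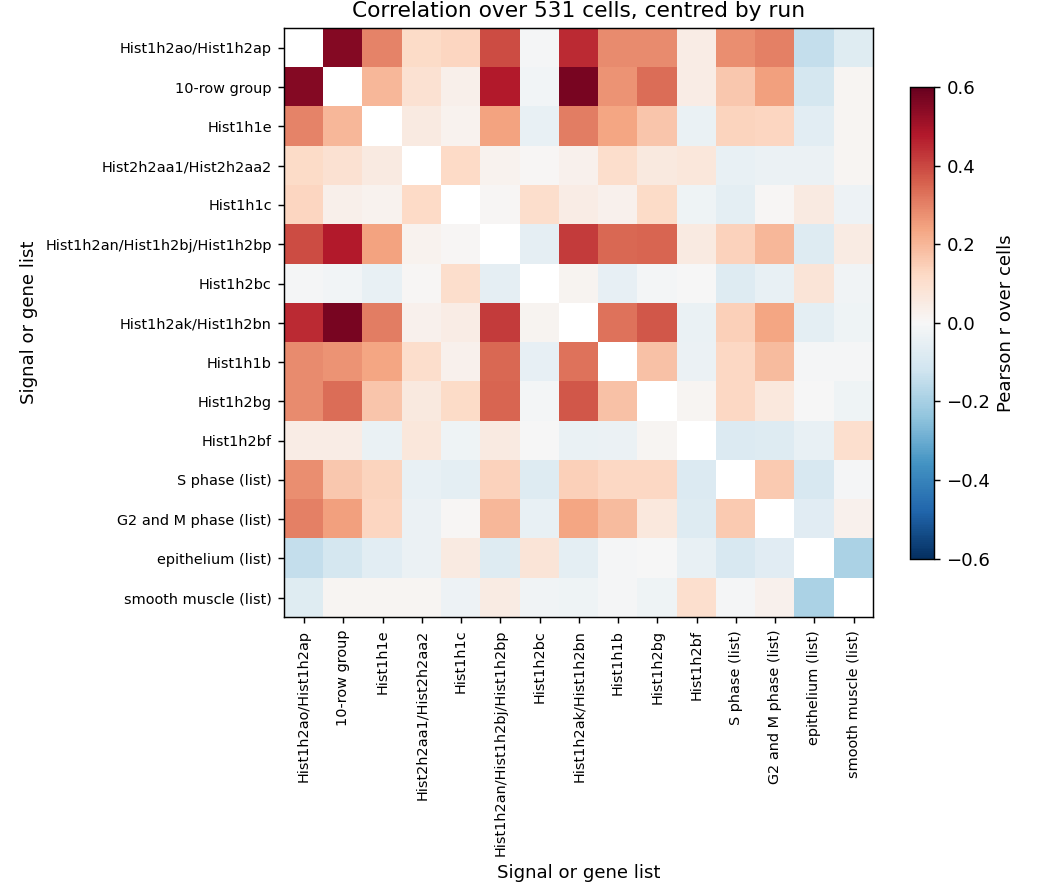
Pearson r over the thinned cells of pnd0, pnd7 and pnd14 between the 11 histone signals with the most counts and 4 summed gene lists (colour from −0.6 to 0.6). Hist1h2ao/Hist1h2ap, the 10-row group, Hist1h1e, Hist1h1b and the other joined Hist1 signals form a block with positive values, and Hist1h2bc, Hist1h1c, Hist2h2aa1/Hist2h2aa2 and Hist1h2bf lie outside it.

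Of 1727 genes that are not members, those most like the summed histone count over the same cells were H2afz (r 0.25), Pcna (0.23), its pseudogene row Pcna-ps2 (0.18), Birc5 (0.18), Ube2c (0.17), Rpn2 (0.16), Cdca3 (0.15), Exosc9 (0.15), Rpa2 (0.14) and Fam166a (0.14). The values over all 1727 genes ran from −0.15 to 0.25 with a median of −0.01. H2afz had r above 0 in 8 of 8 runs and Pcna in 7 of 8. All are weak, and reads of Pcna and Pcna-ps2 may be shared.

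The promoters of the signals named above were read from RefSeq (GRCm38.p6) to set the genes that moved differently side by side. Of the 66 genes 59 had an entry in the promoter table. Shown are the 150 bases before the start of Hist1h2ao (chr13:21810217-21810366, plus strand), Hist1h1e (chr13:23622559-23622708, minus strand), Hist1h1c (chr13:23738657-23738806, plus strand) and Hist2h2aa1 (chr3:96245347-96245496, plus strand), 5′ to 3′ on the strand of the gene. Capitals mark the CCAAT box, the TATA box in its form TATAAA, the octamer ATTTGCAT and the H1 box AAACACA, each searched on both strands.
Hist1h2ao: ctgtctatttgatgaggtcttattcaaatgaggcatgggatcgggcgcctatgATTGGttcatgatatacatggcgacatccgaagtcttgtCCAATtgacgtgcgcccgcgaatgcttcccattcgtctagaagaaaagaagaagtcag
Hist1h1e: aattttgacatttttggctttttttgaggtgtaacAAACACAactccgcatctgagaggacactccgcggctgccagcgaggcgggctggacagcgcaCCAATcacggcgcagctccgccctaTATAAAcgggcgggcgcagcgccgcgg
Hist1h1c: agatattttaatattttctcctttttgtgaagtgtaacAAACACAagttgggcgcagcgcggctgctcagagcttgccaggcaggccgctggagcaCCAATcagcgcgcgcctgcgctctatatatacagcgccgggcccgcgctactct
Hist2h2aa1: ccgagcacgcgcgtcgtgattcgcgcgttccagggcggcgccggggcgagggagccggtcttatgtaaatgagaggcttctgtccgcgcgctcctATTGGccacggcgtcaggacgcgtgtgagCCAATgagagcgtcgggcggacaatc

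Hist1h1e and Hist1h1c, whose levels took different courses with age, both hold the H1 box and CCAAT. Hist1h2ao and Hist2h2aa1 both hold CCAAT on each strand.

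In the 250 bases before the start, CCAAT was found in 83.1% of the 59 histone promoters and in 34.5% of 27025 promoters of the same length. By class it was in 6 of 6 H1, 18 of 18 H2A, 16 of 16 H2B and 7 of 9 H3 promoters, and in 2 of 10 H4 promoters. TATAAA was found in 49.2% against 12.97% of all promoters. The octamer was in 7 H2A and 6 H2B promoters and in no H1, H3 or H4 promoter, against 1.61% of all. The H1 box was in 5 of 6 H1, 2 of 18 H2A and 2 of 16 H2B promoters and in no H3 or H4 promoter, against 6.22% of all. Neighbouring H2A and H2B genes often point away from one shared stretch of DNA, so their windows overlap and are not separate observations. A match of letters is a description and not a binding site.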

How the data were processed

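Counts per gene and cell were deposited by the authors as 1 table of 12479 rows and 714 cells, each cell a sample of 1 of 5 ages. Per the labels' protocols the libraries follow CEL-seq. The submitters' processing notes list TopHat, Cuffnorm and mm9 without their roles. For counting rules, molecular identifiers and cell filters the sources used here give nothing. Values are whole numbers with unlike totals per cell and were taken as raw counts.

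Members were all rows named Hist1h to Hist4h. Members, lists and comparisons were chosen with earlier results of these data known. Rows with equal counts in over 50% of at least 5 cells were joined. Signals with at least 20 counts are described in full; list genes are named by their counts, up to 4 a list, or where the number called is small, after their values were seen; likeness names the 10 highest r. Levels carry exact Poisson intervals, ratios exact conditional binomial intervals and shares Clopper-Pearson intervals, at 95%, and all cover counting error only. Without animals in the labels there was no test. No cells were called doublets; an alternative leaves out the 5% of cells with the highest totals of each run. Interval coverage was checked on simulated Poisson counts only. These hold no spread between cells or runs beyond counting, so the check does not bear on that spread. RefSeq and GENCODE (GRCm38) gave names and sequences only, since no mm9 genome was used. The tools were python 3.11.15, numpy 2.4.6, pandas 2.3.3, scipy 1.17.1 and matplotlib 3.10.9. Alternatives for row joining, scaling, depth, runs and cells are given at the end.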

Additional observations from a re-analysis of the deposited data

How the results depend on the processing

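Left out 1 run at a time, the log2 ratio of all histone signals ran from 0.40 to 1.38 for pnd7 over pnd0, from −1.07 to −0.33 for pnd14 over pnd7, from −2.15 to −1.41 for pnd28 over pnd14 and from −0.28 to 0.70 for pnd56 over pnd0. Under the other alternatives the values that left the counting interval are given in the order pnd7 over pnd0, pnd14 over pnd7, pnd28 over pnd14, pnd56 over pnd28 and pnd56 over pnd0. Cells thinned to 1500 counts gave 0.70, −0.30, −2.03, 2.39 and 0.76. Without Hist1h2ao/Hist1h2ap the values were 0.67, 0.41 (the other sign), −1.22, 0.62 and 0.49. Without the cell with the most histone counts of each age the first 3 were 0.89, −0.77 and −2.01, and the last was −0.11. Without the 5% of cells with the highest totals the first, second and last were 0.91, −0.62 and 0.52. Median-of-ratios scaling gave −0.60 for the second and 0.31 for the last, leaving out cells with at least 3 smooth muscle counts gave −0.44 and 0.31, and leaving out the 2 cells with equal counts gave 0.69 for the first.

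Among the classes the sign changed for H2B at pnd56 over pnd0 when every row was summed (−0.070), for H3 at pnd7 over pnd0 without the cell with the most histone counts (−0.094) or without the 2 cells (−0.080), for H4 at pnd14 over pnd7 when thinned (−0.069), without run 4 (−0.063) or without the 2 cells (−0.25), and for H1 at pnd14 over pnd7 without run 4 (−0.067) or run 6 (−0.11). Leaving out 1 run at a time, H4 ran from −0.063 to 1.13 and H1 from −0.11 to 0.62 at pnd14 over pnd7. Without Hist1h2ao/Hist1h2ap the sum of pnd14 over pnd7 ran from −0.14 (without run 4) to 0.72 (without run 5). The cause was not tested. No single signal whose counting interval excluded equal levels changed its sign among the finite ratios of the alternatives run. Of the values of all measured signals, 587 stayed within the counting interval and 76 moved. A ratio with no counts left at an age has no finite log2 value and is not in this tally. An example is Hist1h3c, which has no pnd14 count outside run 4. Joining rows at over 80% equal cells gave 56 signals in place of 51. The alternatives without Hist1h2ao/Hist1h2ap, without smooth muscle cells and without the 2 cells were chosen after seeing the data.

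No paired analysis was possible because cell numbers are only names, each age is 1 sample and no label links cells of different ages. Depth limits pnd28 and pnd56 most: 3 counts are 31.2 and 36.6 CPM there, against 4.09 CPM at pnd7. H3 and H4 cannot be compared with pnd28 at this depth.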
